A study of Mus musculus with 157 samples.

Results

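The 78 mouse genes described here are named for proteins of the mitochondrial ribosome. They are all rows of the deposited expression tables with the symbol Mrpl or Mrps followed by a number. A letter from a to d may follow the number. This gave 49 Mrpl genes, named for the large subunit, and 29 Mrps genes, named for the small subunit, among 36102 genes. The 2 sets were split by symbol, and the subunit in which each protein sits was not checked. No measured value was used to choose them. The study sorted 16 haematopoietic cell types from wild type mice and sequenced, in 2 libraries per type, the total RNA (input) and the RNA pulled down with an antibody against N6-methyladenosine (m6A; the IP libraries, made from Trizol-extracted RNA). Further libraries came from 7 stem and progenitor types labelled Mettl3 -/- or wild type (14 input and 14 IP libraries per genotype), and from long-term haematopoietic stem cells labelled Igf2bp2 -/- or wild type (2 libraries each). Newly made RNA was measured in 6 wild type cell types (12 libraries) by labelling cells with 4-thiouridine (4sU, 100 mM for 3 h) and reading T-to-C conversions, and labelled RNA was followed in 2 wild type cell types after 24 h of 4sU and a chase of 0.5, 1, 3, 6, 9, 12 or 24 h. The series comprised 157 samples in 82 groups. The labels used here give no age of the mice and no promoter or Cre for the 2 deletions, and do not state whether the 2 libraries of a group were made from different mice. The p-values therefore reflect the variation among the libraries, which may be technical.

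The mitochondrial ribosome translates the few proteins encoded in mitochondrial DNA, which are core subunits of the respiratory chain and of ATP synthase. Its RNA comes from the mitochondrial genome, whereas all of its proteins are encoded in the nucleus, made on cytosolic ribosomes and imported, so the 2 genomes have to supply parts of the same machine. Blood stem cells are known to keep mitochondrial activity low while at rest, and committed progenitors and red cell precursors are known for high mitochondrial activity. Some members have further roles: Mrpl12 binds the mitochondrial RNA polymerase, Mrpl58 is a peptidyl-tRNA hydrolase that sits in the large subunit, and the product of Mrps36 is now described as a subunit of the 2-oxoglutarate dehydrogenase complex.

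The promoters of 69 members could be read from RefSeq (GRCm38.p6, from 250 bases before to 50 bases after the annotated start), and short motifs of factors known to bind genes of this kind were searched on both strands. A gene was counted where any of its promoter entries held the motif. The ETS motif CCGGAAG, which GABP (nuclear respiratory factor 2) binds, was in 26 of the 69 members (37.7%) and in 9.93% of all 27025 genes with an entry. The NRF1 motif, GCGC and TGCGC with any 1 base between them, was in 13 members (18.8% against 5.19% of all genes). The YY1 motif AANATGGCG was in 11 (15.9% against 2.76%). At least 1 of these 3 was present in 42 members (60.9%), against 15.9% of all genes. The SP1 motif GGGCGG (49.3% of members, 38.2% of all), the CCAAT box CCAAT (39.1% and 41.1%), the E-box CACGTG (7.25% and 8.09%) and the TATA box TATAAA (7.25% and 15.7%) differed less or were less frequent among the members. None of the spelled motifs contains another, although the GC-rich NRF1 and SP1 motifs can share bases at their edges. A match describes the letters in this window and does not show binding. The 6 promoters printed here belong to genes whose values the results turn on: one of the members that followed the group most closely (Mrpl12), the 2 with the widest range over cell types (Mrpl33 and Mrps27), one that ran opposite to most in erythroid cells (Mrps36), and 2 of the 3 paralogs of the bacterial protein S18 (Mrps18a and Mrps18b). Each is written 5′ to 3′ on the strand of its gene, with the ETS, NRF1 and YY1 matches in capitals; Mrps36 has none of the 3.
Mrpl12, chr11:120484387-120484686 (+): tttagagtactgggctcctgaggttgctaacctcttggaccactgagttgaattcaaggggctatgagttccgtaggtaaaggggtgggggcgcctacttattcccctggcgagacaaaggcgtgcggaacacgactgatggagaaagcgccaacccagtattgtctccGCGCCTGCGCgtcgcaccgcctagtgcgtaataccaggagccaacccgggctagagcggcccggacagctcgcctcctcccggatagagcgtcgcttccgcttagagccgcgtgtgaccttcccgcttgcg
Mrpl33, chr5:31613701-31614000 (+): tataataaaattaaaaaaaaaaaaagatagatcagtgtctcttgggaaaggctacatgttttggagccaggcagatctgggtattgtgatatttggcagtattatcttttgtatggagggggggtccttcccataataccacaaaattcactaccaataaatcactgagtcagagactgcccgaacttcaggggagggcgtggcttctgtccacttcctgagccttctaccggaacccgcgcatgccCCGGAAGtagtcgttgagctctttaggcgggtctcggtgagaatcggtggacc
Mrps27, chr13:99344536-99344835 (+): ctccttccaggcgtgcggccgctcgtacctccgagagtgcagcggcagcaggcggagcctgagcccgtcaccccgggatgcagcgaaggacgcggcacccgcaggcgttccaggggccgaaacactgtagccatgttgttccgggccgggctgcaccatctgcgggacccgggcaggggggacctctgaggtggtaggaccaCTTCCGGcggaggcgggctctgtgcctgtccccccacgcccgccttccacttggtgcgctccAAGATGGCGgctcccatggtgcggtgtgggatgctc
Mrps36, chr13:100744610-100744909 (-): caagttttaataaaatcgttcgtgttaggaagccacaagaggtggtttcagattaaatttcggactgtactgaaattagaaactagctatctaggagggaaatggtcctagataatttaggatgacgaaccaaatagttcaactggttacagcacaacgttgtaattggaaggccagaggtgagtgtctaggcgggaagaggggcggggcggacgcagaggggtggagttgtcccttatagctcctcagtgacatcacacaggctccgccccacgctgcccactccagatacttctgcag
Mrps18a, chr17:46110754-46111053 (+): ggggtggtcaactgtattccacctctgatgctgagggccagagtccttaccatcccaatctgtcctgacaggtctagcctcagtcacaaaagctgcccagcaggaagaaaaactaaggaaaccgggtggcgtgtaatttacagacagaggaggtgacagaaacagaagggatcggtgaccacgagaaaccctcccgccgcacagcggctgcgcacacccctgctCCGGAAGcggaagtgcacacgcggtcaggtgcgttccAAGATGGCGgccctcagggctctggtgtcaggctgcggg
Mrps18b, chr17:35916391-35916690 (-): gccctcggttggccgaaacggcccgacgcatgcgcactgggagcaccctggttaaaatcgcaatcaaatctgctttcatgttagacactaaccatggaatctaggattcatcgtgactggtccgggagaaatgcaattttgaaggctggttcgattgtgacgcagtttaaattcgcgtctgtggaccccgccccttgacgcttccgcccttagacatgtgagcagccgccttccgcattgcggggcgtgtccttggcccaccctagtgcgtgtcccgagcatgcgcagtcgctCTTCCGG

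The 78 genes lie on 17 chromosomes, with 11 on chromosome 11 and 8 on chromosome 17. Mrpl46 and Mrps11 on chromosome 7 are the only members within 10 kb of each other: 41 bases lie between their annotated bodies, and their 16 mean levels had a Pearson correlation of 0.84, against a median of 0.54 over all 3003 pairs of members. RefSeq places another gene over part of 25 members, among them Twnk over Mrpl43 (chr19:45005014-45006442), Gm38424 over Mrpl33 (chr5:31613951-31622644) and 6430562O15Rik over Mrps27 (chr13:99344767-99415562). No source used here says whether the counting was stranded, and reads of overlapping genes may not have been told apart. Mrpl23 has a processed copy, Mrpl23-ps1, that was counted apart and at higher values than the gene itself in all 16 types: Mrpl23 held 13.8% (Monocyte) to 37.1% (LT.HSC) of the 2 rows' sum, so the values of Mrpl23 are uncertain throughout.

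Markers were compared with the labels. The libraries labelled CD4 held Cd4 at 7.77 and 13.7 and Cd8a at 12002 and 11930 (normalised read counts), and those labelled CD8 held Cd4 at 1510 and 1482 and Cd8a at 80.3 and 30.9, so the 2 labels appear exchanged; they are used here as labelled, and the average over mature types contains both. The 5 neutrophil granule and surface markers Ly6g, Ltf, Camp, S100a8 and Retnlg summed to 1.23e+07 and 1.57e+07 in the Monocyte libraries and to 1.19e+06 and 1.28e+06 in the Neutrophil libraries. The 4 monocyte markers Csf1r, Ccr2, Ly6c2 and F13a1 summed to 214458 and 257032 in Monocyte and to 53193.5 and 55452 in Neutrophil. In any library of the other types the sum was at most 71764. Most of the Monocyte sum was Ly6c2 (mean 229236), the only one of these markers with its highest mean in Monocyte. Csf1r was highest in DC (1118 against 650 in Monocyte), Ccr2 in CLP (2598 against 1895) and F13a1 in Neutrophil (4929 against 3964). In the Mettl3 tables, the Mettl3 transcript ranged from 274 to 931 in libraries labelled Mettl3 -/- and from 127 to 5370 in those labelled wild type, and the 2 genotypes overlapped in 5 of 7 types, the libraries labelled Mettl3 -/- being the higher ones in GMP and ST.HSC; Igf2bp2 stood at scaled counts of 149 and 117 in the libraries labelled Igf2bp2 -/- against 61.3 and 452 in wild type. Whether the counted sequence lies in the deleted part is not given in the labels, so these values do not check the deletions. Depth ran from 8.23e+06 to 2.15e+07 reads per atlas input library, 1.08e+07 to 2.46e+07 per atlas IP library, 3.42e+06 to 2.02e+07 per Mettl3 input library and 818993 to 2.29e+07 per Mettl3 IP library. The 10 most abundant genes held 52.2% and 58.8% of the reads in the Erythroid inputs and 52.8% and 54.1% in the Monocyte inputs.

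Across the 16 wild type cell types, the mitochondrial ribosomal genes were highest in progenitors of the erythroid, granulocyte and megakaryocyte branches and lowest in dendritic cells and long-term stem cells. Every member was detected in every input library, at normalised read counts from 23.9 to 31730.5. Levels are given as the deviation of a gene's mean log2(normalised read count + 1) in a type from its own mean over the 16 types, since the lengths needed to compare genes with each other were not used here. The median deviation over the 78 genes was 0.87 in megakaryocyte-erythroid progenitors (MEP), 0.73 in granulocyte-monocyte progenitors (GMP) and 0.44 in megakaryocyte progenitors (MkP). At the other end it was -0.62 in long-term stem cells (LT.HSC) and -0.90 in dendritic cells (DC). In MEP 75 of the 78 genes were above their own mean, in GMP 73 and in MkP 73, whereas in LT.HSC only 6 and in DC only 2 were. The median over all genes tested ran the other way in these types, at -0.34 in MEP, -0.23 in GMP, -0.36 in MkP, 0.16 in LT.HSC and 0.18 in DC.

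Between these ends the order was LMPP (0.35), CMP (0.23), Erythroid (0.11), B_cell (0.03), CLP (-0.02), CD4 (-0.06), MPP (-0.11), CD8 (-0.15), ST.HSC (-0.22), Neutrophil (-0.34) and Monocyte (-0.36). The 2 libraries of a type could lie far apart: their medians were 0.70 and 0.01 in LMPP, 0.98 and 0.41 in GMP, 0.13 and 0.82 in MkP and -0.27 and 0.49 in B_cell. Neighbours in this order overlapped in their single libraries except at 3 places, namely ST.HSC above Neutrophil, Monocyte above LT.HSC, and LT.HSC above DC. The medians of the Mrpl and the Mrps genes were 0.87 and 0.85 in MEP and both -0.62 in LT.HSC. They lay furthest apart in Monocyte (-0.21 and -0.51), Erythroid (0.21 and 0.01) and MkP (0.40 and 0.60). The difference was not tested. These are bulk RNA values of sorted cells, scaled by a size factor per library. They give relative levels, in which a change within cells and a change in the mix of sorted cells cannot be told apart.

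**Figure D1:**
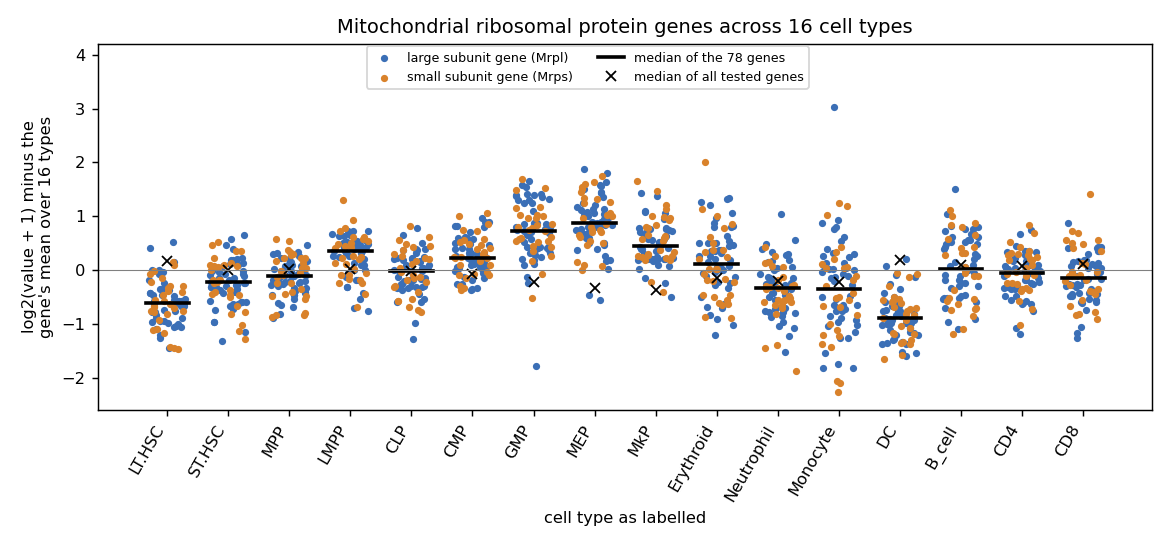
Deviation of each of the 78 genes from its own mean over the 16 types (log2 scale, vertical axis) in each cell type (horizontal axis), with 1 dot per gene (blue for Mrpl, orange for Mrps), a black bar at the median of the 78 and a cross at the median of all genes tested. The bars are highest in MEP and GMP and lowest in DC and LT.HSC, and the crosses run the opposite way in these 4 types.

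The shared profile was compared with 2 other groups of genes whose products work beside these proteins. Both were above 0 in the same progenitors. The cytosolic ribosomal proteins had medians of 0.73 in MEP, 0.75 in GMP and 0.41 in MkP, with 0.64 in LMPP. The nuclear genes of the respiratory chain had 0.47 in MEP, 0.69 in GMP and 0.36 in MkP. Their medians in Monocyte (0.67) and B_cell (0.58) were above those in MEP and MkP. The cytosolic ribosomal proteins, which build the ribosomes of the cytoplasm, had a median deviation of -0.15 in LT.HSC and of -1.23 in Neutrophil, where the mitochondrial ribosomal genes stood at -0.34. The respiratory chain genes had -1.01 in LT.HSC and 0.67 in Monocyte, where the mitochondrial ribosomal genes stood at -0.36. In DC all 3 groups were low, at -0.90 for the mitochondrial ribosome, -1.01 for the cytosolic ribosome and -1.14 for the respiratory chain.

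Most members followed the group and a few did not. Over the 16 type means, the Pearson correlation of a member with the median profile of the other members had a median of 0.73 and ran from 0.07 to 0.95; it was over 0.8 for 24 members (30.8%) and for 0.878% of the genes that are no members. The cytosolic ribosomal proteins followed the members' median profile as closely, with a median of 0.73, and the respiratory chain genes had 0.57. These correlations describe 16 points that share libraries and scaling. The closest were Mrpl15 (0.95), Mrpl12 (0.95) and Mrps18a (0.93), and the least alike were Mrpl43 (0.07), Mrpl33 (0.09) and Mrpl10 (0.23). Among genes outside the family, the closest to the members' median profile were Atp5g1, a subunit of ATP synthase (0.95), Erh (0.95), Timm13, a chaperone of mitochondrial import (0.94), Ndufab1, the mitochondrial acyl carrier protein (0.94), and Rpl27, a cytosolic ribosomal protein (0.93).

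Mrpl12, which binds the mitochondrial RNA polymerase, showed the common pattern in its libraries. Its normalised read counts were 1037 and 865 in LT.HSC, 1025 and 1017 in DC, 7629.8 and 4120.4 in GMP, 6785 and 6166 in MEP and 3358 and 6610.2 in MkP. The 6 progenitor libraries lay above the 4 LT.HSC and DC libraries with no overlap. By highest mean, 35 members peaked in MEP, 18 in GMP, 7 in Erythroid, 5 in Monocyte, 5 in B_cell, 4 in MkP, 2 in LMPP and 2 in CD8; the lowest mean fell in DC for 34, in Monocyte for 19 and in LT.HSC for 13. For 19 members both libraries of the highest type exceeded every other library. The ratio of the highest to the lowest type mean had a median of 4.67, and was smallest for Mrpl1 (2.64), Mrpl4 (2.75) and Mrpl14 (2.87).

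The 3 widest ranges belonged to Mrpl33, Mrps27 and Mrps28. Mrpl33, a small protein of the large subunit with a bacterial counterpart, stood at 24732 and 31730.5 in the Monocyte libraries and at 7303 and 6902 in the Neutrophil libraries, against 1500 and 1288 in ST.HSC, a 20.1-fold range of means. Its Monocyte libraries were above every other library, the next being 1 GMP library at 9027. Mrps27, a small subunit protein of the pentatricopeptide repeat family, was lowest where Mrpl33 was highest: it had 23.9 and 80.9 in Monocyte against 646 and 818 in MEP (16.1-fold). Mrps28 likewise had 104 and 139 in Monocyte and 1334 and 1813 in MEP (12.9-fold). The Monocyte libraries are those that carried neutrophil granule transcripts above the Neutrophil libraries; the part of that in these values was not tested.

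Other members departed from the common profile in single lineages. Mrps36, the 2-oxoglutarate dehydrogenase subunit, was highest in Erythroid at 2123 and 2198, where no other library exceeded 1088, and was 205 and 184 in LT.HSC. Mrpl43, a large subunit protein with no bacterial counterpart, was highest in B_cell at 1993 and 3063 and lowest in LT.HSC at 386 and 502. Mrpl10, a protein of the stalk of the large subunit, was highest in MkP at 1265 and 1219 and lowest in B_cell at 460.0 and 195. Mrpl52 and Mrps6 were singled out after their values were seen. Mrpl52 had 93.6 and 134 in GMP against 1339 and 1504 in MEP, sister types in which most members were high. Mrps6 had 724 and 479 in CD8 against 59.8 and 59.4 in Neutrophil.

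**Figure D2:**
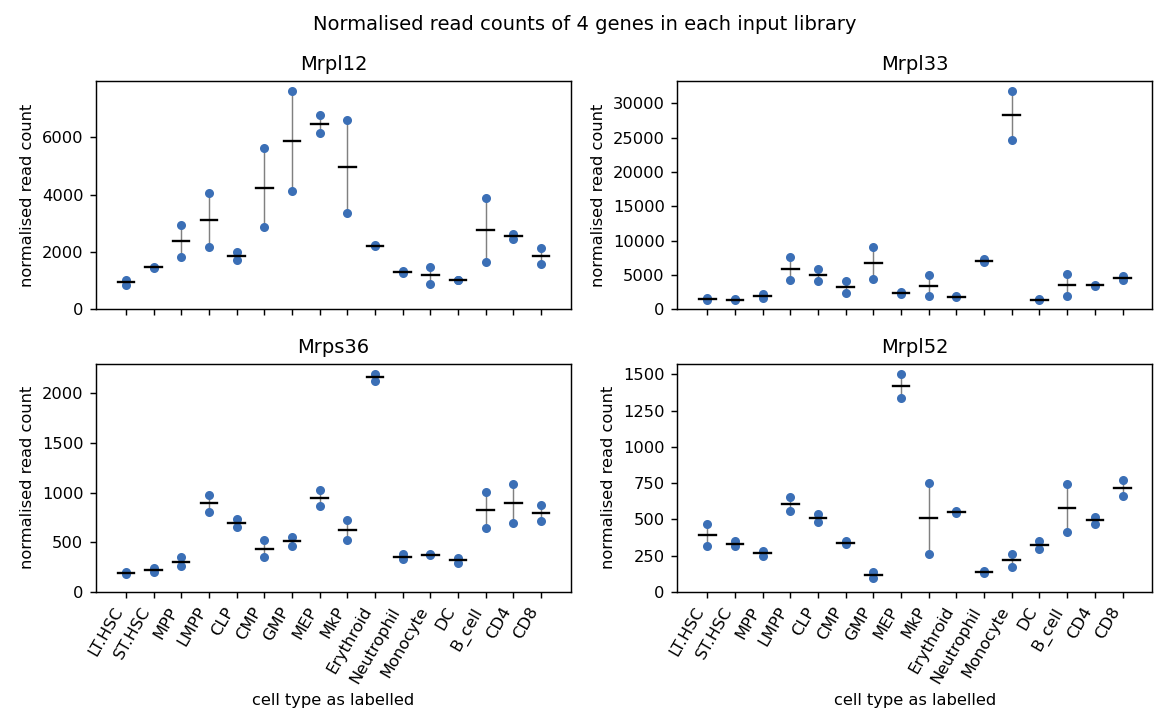
Normalised read counts (vertical axis, linear from 0) of Mrpl12, Mrpl33, Mrps36 and Mrpl52 in the 2 input libraries of each of the 16 types (horizontal axis), with 1 dot per library and a bar at the mean of the 2. Mrpl12 peaks in GMP and MEP, Mrpl33 in Monocyte, Mrps36 in Erythroid and Mrpl52 in MEP, with GMP its lowest type.

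The 3 mammalian paralogs of bacterial S18 differed in profile. Mrps18a followed the group (correlation 0.93), with 2749 and 1761 in GMP and 579 and 612 in DC. Mrps18b did so less closely (0.82), with 3615 and 3490 in MEP and 502 and 589 in Monocyte. Mrps18c did not (0.41): it was highest in one LMPP library (6248, against 2642 in the other) and in Monocyte (4118 and 5718), and lowest in DC (711 and 712) and LT.HSC (927 and 664). Mrps18b was therefore low and Mrps18c high in the same Monocyte libraries.

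Long-term stem cells were compared with the average of the 15 other types by limma on log2(normalised read count + 1), a linear model fitted to all 17165 genes with at least 10 reads in at least 2 libraries, with Benjamini-Hochberg adjusted p-values; a gene is called at an adjusted p under 0.05. Of the 78 mitochondrial ribosomal genes, 43 were lower in LT.HSC (17.5% of all genes were called lower) and 0 were higher (22.8% of all genes). The lower genes were 26 of 49 Mrpl and 17 of 29 Mrps genes. The median difference was -0.66 over the 78 genes against 0.17 over all genes. At an unadjusted p under 0.05 limma gave 1 member higher, and edgeR on the read counts recovered from the table gave 0 higher and 48 lower.

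The 4 lowest in LT.HSC were 3 Mrps genes and 1 Mrpl gene. Mrps36 was at 205 and 184 in LT.HSC and at 199 to 2198 (median 599) in the 30 other libraries, a log2 difference of -1.56 (SE 0.21, limma adjusted p = 1.97e-06). Mrps23 was at 187 and 180.2 against 309.7 to 894 (median 536), a difference of -1.55 (SE 0.20, limma adjusted p = 2.2e-06). Both LT.HSC libraries of Mrps23 lay below all 30 others, whereas those of Mrps36 overlapped the lowest of them. Mrpl18 was at 1157 and 849 against 1095 to 6126 (median 3065), with a difference of -1.54 (limma adjusted p = 5.55e-05), and Mrps18c at 927 and 664 against 711 to 6248 (median 2447), with -1.53 (limma adjusted p = 0.000196). Both overlapped the other types. Among members chosen for their roles, Mrpl12 (-1.34), Mrpl58 (-1.004), Mrps18b (-0.84), Mrps7, which sits in the head of the small subunit (-0.81), and Mrps12 of the decoding centre (-0.74) were called lower. Mrpl11 of the factor-binding region (-0.20, limma adjusted p = 0.593) and Mrpl44 (0.17, limma adjusted p = 0.502) were not called.

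The rest of the pathway was counted from lists of genes with other symbols. Of 5 further ribosomal subunits 3 were lower in LT.HSC (Chchd1 -1.03, Dap3 -0.79, Aurkaip1 -0.72) and 0 higher. Of 11 mitochondrial translation factors 2 were lower (Tufm, the elongation factor Tu, -1.14, and the release factor Mtrf1l -0.96) and 1 higher (the GTPase Guf1, 2.03). Of 20 assembly and rRNA modification factors 4 were lower and 1 higher. Of the 77 nuclear respiratory chain genes 54 were lower and 0 higher (median -1.08), and of the 81 cytosolic ribosomal proteins 12 were lower and 2 higher (median -0.16). Of 9 factors described as acting at promoters of such genes, Ppargc1a (1.99), Myc (1.20) and Esrra (0.95) were higher and Nrf1 lower (-0.50). The count of 43 members fell to 27 without the first LT.HSC library and to 16 without the second; with the Monocyte libraries left out it was 46.

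Megakaryocyte progenitors were then set against long-term stem cells, a comparison that uses the same LT.HSC libraries. Of the 78 genes, 56 were higher in MkP (20.0% of all genes were called higher) and 0 lower (32.1% of all genes), by limma. The median difference was 1.09 against -0.41 for all genes, and 76 of the 78 were above 0. The higher genes were 31 Mrpl and 25 Mrps genes. No member was lower at an unadjusted p under 0.05 in limma, and edgeR on recovered reads gave 73 higher and 0 lower.

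The 4 with the highest difference are described with their libraries. Mrpl12 rose from 1037 and 865 in LT.HSC to 3358 and 6610.2 in MkP, a log2 difference of 2.31 (SE 0.42, limma adjusted p = 8.15e-05). Mrpl3, a conserved protein of the large subunit, rose from 217 and 218 to 1047 and 1049, or 2.26 (SE 0.34, limma adjusted p = 9.61e-06). In both, the 2 types did not overlap. Mrps23 rose from 187 and 180.2 to 681 and 889.8, or 2.08 (SE 0.28, limma adjusted p = 2.38e-06), and Mrps5, a conserved protein of the small subunit, from 317 and 288 to 976 and 1356, or 1.93 (SE 0.24, limma adjusted p = 1.02e-06). These did not overlap either. Among the role members, Mrps36 (1.65), Mrps18b (1.62), Mrpl58 (1.35), Mrps7 (1.33), Mrps18a (1.22), Mrps12 (1.04) and Mrps18c (1.02) were higher, while Mrpl11 (0.70, limma adjusted p = 0.130) and Mrpl44 (0.61, limma adjusted p = 0.0565) were not called. The share called was similar for members with and without an ETS, NRF1 or YY1 motif in the promoter window. It was 28 of 42 with a motif (median 1.05) and 19 of 27 without (median 1.18). All 9 members whose promoter could not be read were called (median 1.04).

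The pathway lists were read in the same comparison. Of the 5 further subunits 4 were higher (Gadd45gip1 1.65, Chchd1 1.55, Dap3 0.97, Aurkaip1 0.83). Of 11 translation factors Tufm (2.37), the elongation factor Gfm1 (2.26) and Tsfm (1.90) were among 4 higher, and Guf1 was lower (-1.68). Of 20 assembly factors 8 were higher, led by Fastkd2 (2.20), Rbfa (1.79), Mpv17l2 (1.75) and the GTPase Noa1 (1.61), and 1 was lower. Of the respiratory chain genes 60 of 77 were higher and 0 lower, and of the cytosolic ribosomal proteins 24 of 81 were higher and 2 lower. Of the factors described as acting at such promoters, Myc (1.47) and Gabpb1 (1.44) were higher, and Ppargc1a (-4.94) and Yy1 (-1.62) were lower.

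Markers of other cells moved with this comparison. The 4 granulocyte-monocyte progenitor markers Mpo, Elane, Ctsg and Prtn3, none at 0 in either type, summed to 750979 and 713264 in the MkP libraries, to 2944 and 3099 in LT.HSC and to 4719850.0 and 1767370.0 in GMP. The 4 megakaryocyte markers Pf4, Itga2b, Gp1bb and Gp9 summed to 25554 and 88012 in MkP and 2824 and 2350 in LT.HSC, with none at 0. Of the 5 LT.HSC markers, Fgd5 was at 0 in MkP. The part of these other cells' RNA in the members' difference was not tested. The count of 56 was 28 without the second MkP library and 37 without the second LT.HSC library, and other scaling of the libraries moved the median of all genes from -0.41 to -0.26 and that of the members from 1.09 to 1.26.

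Erythroid cells had lower mitochondrial ribosomal gene levels than MEP. Of the 78 genes 34 were lower (13.3% of all genes) and 2 higher (20.7% of all genes) by limma, with a median difference of -0.67 against 0.17 for all genes. The 2 higher genes were Mrps36, at 2123 and 2198 in Erythroid against 1029 and 866 in MEP (1.19, SE 0.28, limma adjusted p = 0.00179), and Mrpl32, a large subunit protein matured by the m-AAA protease, at 1644 and 1559.9 against 773 and 688 (1.13, SE 0.29, limma adjusted p = 0.00366). In neither did the types overlap. Among the lowest, Mrps27 was at 126 and 153 against 646 and 818 (-2.38, SE 0.42, limma adjusted p = 9.07e-05), Mrpl17 at 1121 and 1236 against 4182 and 4056 (-1.81, SE 0.35, limma adjusted p = 0.000285) and Mrps10 at 966 and 1167 against 4031 and 3365 (-1.79). Mrpl23 had the lowest value (-2.42, 262 and 206 against 1257 and 1229) and is uncertain. Mrpl12 (-1.54), Mrps18b (-1.57) and Mrps12 (-1.43) also fell.

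In the same comparison, translation factors fell in 3 of 11 (Tufm -1.34, Tsfm -1.11, Mtif3 -0.85), assembly factors in 10 of 20 (Mrm3 -2.21 and Mtg2 -1.999 among them), respiratory chain genes in 6 of 77 with 1 higher, and cytosolic ribosomal proteins in 16 of 81. Myc was lower (-2.55). The Erythroid libraries are those in which 10 genes took most of the reads, and the part of this in the lower values was not tested. Other scaling moved the median of all genes from 0.17 to 0.00 and that of the members from -0.67 to -0.86, and the count of 34 was 19 without the first Erythroid library, 20 without the first MEP library and 21 without the second.

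Neutrophils had lower levels than GMP. Of the 78 genes 49 were lower (18.1% of all genes) and 0 higher (20.5% of all genes), by limma, which gave 0 higher also at an unadjusted p under 0.05; edgeR on recovered reads gave 50 lower and 0 higher. The median difference was -1.10, against 0.00 for all genes. Mrps18b was at 667 and 673 in Neutrophil against 3822 and 2892 in GMP (-2.31, SE 0.27, limma adjusted p = 2.04e-07), Mrpl42 at 2141 and 2139.6 against 16027 and 7675 (-2.37, SE 0.48, limma adjusted p = 0.000329) and Mrps10 at 979.9 and 1007.5 against 6088 and 3667 (-2.25). None of the 3 overlapped. Mrpl23 had the lowest value (-2.63) and is uncertain. Mrpl11 (-2.19), Mrps5 (-2.19) and Mrpl12 (-2.10) also fell, while Mrps18c (-0.32, limma adjusted p = 0.585), Mrpl58 (-0.71, limma adjusted p = 0.0965) and Mrps36 (-0.52, limma adjusted p = 0.155) were not called. Cytosolic ribosomal proteins were lower in 72 of 81 (median -1.91), respiratory chain genes in 31 of 77, assembly factors in 8 of 20 with 2 higher, and Myc was lower (-4.52). Without the first GMP library 25 members were lower.

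The 7 mature types (Erythroid, Neutrophil, Monocyte, DC, B_cell, CD8 and CD4) had lower levels on average than the 9 stem and progenitor types. Of the 78 genes 49 were lower (29.6% of all genes) and 6 higher (39.4% of all genes) by limma, with a median difference of -0.42 against 0.16. Mrps27 ran from 23.9 to 213 (median 136) in the 14 mature libraries and from 101 to 818 (median 359.99) in the 18 others (-1.57, SE 0.15, limma adjusted p = 1.61e-09). Mrps10 ran from 556 to 1301 (median 973) against 809.7 to 6088 (median 2169), or -1.31 (SE 0.13, limma adjusted p = 1.56e-09), and Mrpl17 from 929.6 to 2107 (median 1129) against 1421 to 6893 (median 2527), or -1.20 (SE 0.13, limma adjusted p = 8.64e-09). All 3 overlapped at single libraries. Mrpl23 (-1.37) was lower too and is uncertain.

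The genes higher in mature types included Mrpl33, Mrpl43, Mrps18c and Mrps21. Mrpl43 ran from 655 to 3063 (median 1001) in mature libraries and from 386 to 1247 (median 752) in the others (0.54, SE 0.10, limma adjusted p = 4.71e-05). Mrpl33 ran from 1303 to 31730.5 (median 3924) against 1288 to 9027 (median 2407), or 0.55 (SE 0.15, limma adjusted p = 0.00304). It rested on the Monocyte libraries: without them its difference was 0.10 (limma adjusted p = 0.609). Mrps18c (0.52) and Mrps21 (0.52) also overlapped between the groups. Respiratory chain genes split evenly in the same comparison, with 22 of 77 higher and 21 lower, whereas cytosolic ribosomal proteins were lower in 51 of 81 and higher in 4. Among the pathway lists, 15 of 20 assembly factors were lower (Mrm3, a methyltransferase of the large ribosomal RNA, -1.81) with 1 higher, 7 of 11 translation factors were lower (Guf1 -1.08), and Myc (-2.66) and Pprc1 (-1.52) were lower. Other scaling moved the median of all genes from 0.16 to 0.05 and that of the members from -0.42 to -0.53. All 78 members differed among the 16 types in an F test by limma, as did 92.8% of all genes.

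**Figure D3:**
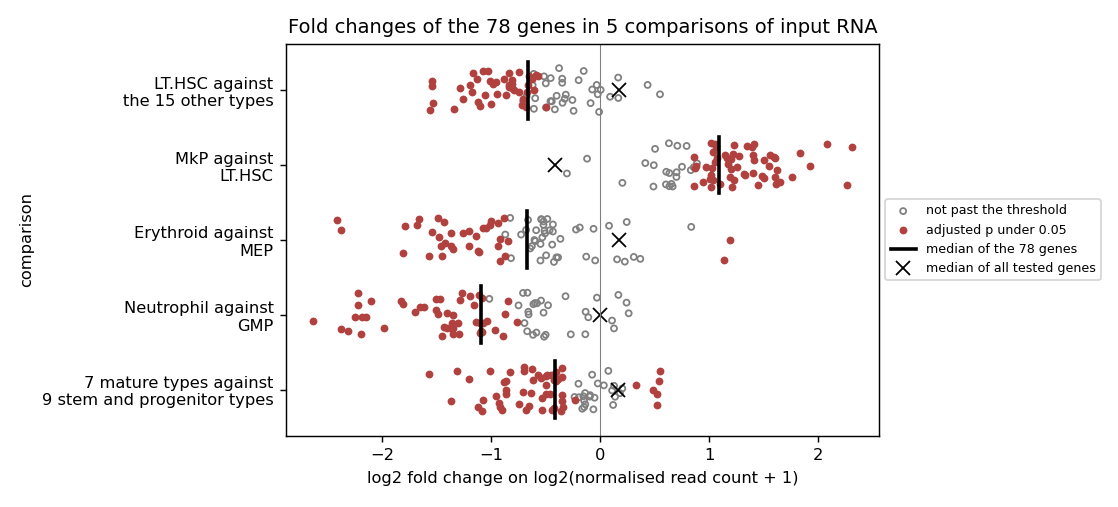
Log2 difference of each of the 78 genes (horizontal axis) in 5 comparisons of cell types (vertical axis), with 1 dot per gene, filled red where the limma adjusted p was under 0.05, a bar at the median of the 78 and a cross at the median of all genes tested. The dots sit mostly above 0 only in MkP against LT.HSC, with 56 filled, and mostly below 0 in the other 4 comparisons; the comparisons share libraries.

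The m6A pulldown was read as enrichment, the log2 IP value minus the log2 input value of the same type after trimmed-mean scaling within each table. It is a relative measure, so levels were ranked only within a type, over 16753 genes, with the median gene of each type at 0. The tested differences were not centred in this way, so a shift of the median gene remains in them. Each contrast is therefore described with the median difference of all genes. In the atlas libraries the mitochondrial ribosomal transcripts were mostly in the lower part of this ranking. On the mean of the 16 types their median enrichment was -0.40, with 25 of 78 above 0, 4 in the top 25% of all genes and 27 in the bottom 25%. MkP was the highest type (median 0.36, 50 above 0, 12 in the top 25% and 5 in the bottom 25%) and B_cell the lowest (median -0.93, 51 in the bottom 25%). The wild type libraries of the Mettl3 tables went the other way. Their member medians lay above 0 in all 7 types, from 0.05 in GMP (41 of 78 above 0) to 1.09 in LT.HSC (58 above 0) and 1.32 in ST.HSC (72 above 0), where the atlas had -0.52, -0.33 and -0.63. In LT.HSC and ST.HSC 36 and 47 members were in the top 25%, against 7 and 4 in the atlas. The 2 tables were scaled apart, and 1 of the 2 wild type IP libraries in LT.HSC and in ST.HSC held most of its counts in 10 genes. In the atlas, the lowest members on the mean of the 16 types were Mrpl37 (-2.24), Mrpl28 (-1.92) and Mrps30 (-1.70), and the highest were Mrpl52 (1.37), Mrpl33 (1.19) and Mrps21 (1.11). Among the 16 types 18 members differed in enrichment (25.0% of all genes; limma F test), led by Mrps27 (F = 7.22, limma adjusted p = 3.85e-05), Mrps30 (F = 5.45) and Mrps12 (F = 4.80); the count was 28 to 36 when 1 of 6 libraries was left out, 36 without the second LT.HSC IP library.

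In LT.HSC against the 15 other types, 6 members had lower enrichment (8.11% of all genes) and 2 higher (1.78% of all genes), with a median difference of -0.19 against -0.22 for all genes. Mrps12, of the decoding centre, had scaled IP counts of 71.6 and 322 in LT.HSC with inputs of 1036 and 971, a difference of -2.49 (SE 0.50, limma adjusted p = 0.00109). Mrpl37 had IP counts of 113 and 96.4 (-1.67, SE 0.46, limma adjusted p = 0.0150), and Mrps28 (-1.56, limma adjusted p = 0.0436) and Mrps5 (-1.35, limma adjusted p = 0.0315) followed. The higher ones were Mrps25, with IP counts of 3585 and 929 (1.29, SE 0.41, limma adjusted p = 0.0372), and Mrps23, with 607 and 326 (1.08, SE 0.33, limma adjusted p = 0.0300). The 2 LT.HSC IP libraries lay far apart in Mrps12 and Mrps25, and over all members they correlated at 0.51, the lowest of the atlas IP pairs. Without the first LT.HSC IP library Mrps12 was at -1.42 and Mrps25 at 0.31. The number of members called also changed when the second was left out. Without the first LT.HSC input library 1 member was lower and 0 were higher, and with median-of-ratios scaling 2 were lower.

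MkP against LT.HSC gave the most calls in enrichment: 10 members were higher (6.89% of all genes) and 0 lower (1.57% of all genes; 0 also at an unadjusted p under 0.05 in limma), with a median of 0.88 against 0.35 for all genes. For Mrps12 the scaled IP counts were 71.6 and 322 in LT.HSC and 3473 and 5901 in MkP, while its inputs were 1036 and 971 against 1565 and 2709, a difference of 3.68 (SE 0.68, limma adjusted p = 0.000575). The IP rose far more than the input, and neither overlapped. Mrpl11 had IP counts of 333 and 161 against 2062 and 3179 over inputs of 741 and 547 against 787 and 1365 (2.59, SE 0.74, limma adjusted p = 0.0220). Mrps15, a conserved small subunit protein, had 92.0 and 438 against 2419 and 3487 over inputs that differed less (2.50, SE 0.77, limma adjusted p = 0.0345), and Mrpl58 had 488 and 62.5 against 2499 and 3249.8 (2.50, SE 0.74, limma adjusted p = 0.0281). The inputs of Mrpl11 did not overlap between the types, nor did the IP counts of any of the 4. The other 6 were Mrpl22, Mrps28, Mrpl37, Mrpl36, Mrpl14 and Mrpl32, at 2.27 to 1.73.

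These calls depended on single LT.HSC and MkP libraries. The count of 10 was 1 without the first LT.HSC input, the first MkP input or the second MkP IP library, 2 without the second LT.HSC input and 16 without the first LT.HSC IP library, and Mrpl58 was at 0.88 (limma adjusted p = 0.399) without the second LT.HSC IP library. Respiratory chain genes were higher in 6 of 77 (Ndufs8 3.46) and cytosolic ribosomal proteins in 0 of 81 (0 lower; 2 higher and 1 lower at an unadjusted p under 0.05). The granulocyte-monocyte progenitor markers named above belong to the same MkP samples.

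**Figure D4:**
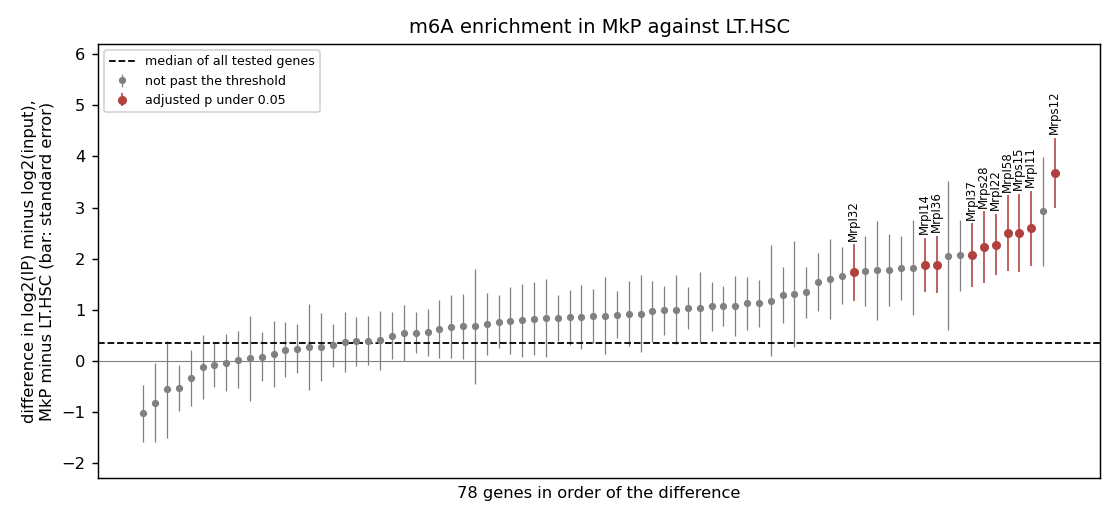
Difference in enrichment (log2 IP minus input) between MkP and LT.HSC (vertical axis, bars are standard errors) for each of the 78 genes in order of size (horizontal axis), with the 10 called genes named and a dashed line at the median of all genes (0.35). Mrps12 stands highest at 3.68, and most of the other genes lie above the dashed line without being called.

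In the mature types against the 9 others, 5 members had lower enrichment (5.46% of all genes) and 0 higher (1.52% of all genes; 2 at an unadjusted p under 0.05 in limma). They were all Mrpl genes. Mrpl46 had type means, with the median gene at 0, from -3.75 to -0.84 (median -1.73) in mature types. In the others they ran from -1.26 to -0.31 (median -1.06). Its tested difference, not centred, was -0.997 (SE 0.27, limma adjusted p = 0.0156). Mrpl43 was at -0.81 (limma adjusted p = 0.0246), Mrpl12 at -0.64 (limma adjusted p = 0.0351), Mrpl18 at -0.61 (limma adjusted p = 0.00826) and Mrpl51 at -0.54 (limma adjusted p = 0.0448). The type means overlapped in all 5, and the median difference of the 78 was -0.14, against -0.11 for all genes. Mrpl43 was the one that also had higher input in the mature types.

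The product of Mettl3 is the catalytic part of the enzyme complex that writes m6A. Over 7 types (MkP, MEP, GMP, CMP, MPP, ST.HSC and LT.HSC), 10 members were higher in the input libraries labelled Mettl3 -/- (7.24% of all genes) and 0 lower (2.89% of all genes), by limma with the type as a term. The median difference was 0.23 against -0.06 for all genes, and 66 of the 78 were above 0; 2 members were lower at an unadjusted p under 0.05, and edgeR on recovered reads gave 12 higher and 0 lower. Mrpl43 ran from 538 to 2928 (median 1237) in the 14 libraries labelled Mettl3 -/- and from 297 to 812 (median 479) in the 14 wild type libraries (1.35, SE 0.22, limma adjusted p = 0.000456). Mrpl46 ran from 1058 to 4940 (median 2154) against 452 to 2826 (median 962), or 1.14 (SE 0.24, limma adjusted p = 0.00358). Mrpl16 ran from 965 to 4319 (median 1724) against 485 to 1642 (median 875), or 1.09 (SE 0.23, limma adjusted p = 0.00320), and Mrps34, needed for a stable small subunit, from 1107 to 5754 (median 2082) against 430 to 2606 (median 989), or 1.09 (SE 0.27, limma adjusted p = 0.0121). In all 4 the genotypes overlapped at single libraries, and the median of the libraries labelled Mettl3 -/- was above the wild type median.

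The other 6 higher members were Mrps23 (0.83), Mrps7 (0.74), Mrps2 (0.71), Mrps12 (0.63), Mrps33 (0.58) and Mrpl19 (0.54). Mrpl43 was also among the members higher in mature types and is overlapped by Twnk, the gene of the mitochondrial DNA helicase. Of the pathway lists, assembly factors were higher in 3 (Ddx28 1.01, Mterf4 0.94, Mrm3 0.86) and translation factors in 2 (Mtif3 0.72, Tsfm 0.65), with 0 lower. Cytosolic ribosomal proteins were lower in 1 of 80 and respiratory chain genes in 1 of 77, with 0 higher.

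The genotype difference lay mostly between the libraries numbered 2. The median over the 78 genes of the difference between genotypes, averaged over the 7 types, was 0.008 for the libraries numbered 1, with 39 genes above 0, and 0.50 for those numbered 2, with 71 above 0. For the 10 called members it was 0.34 and 1.24. Over all genes it was 0.01 and -0.11. Within libraries labelled Mettl3 -/-, number 2 exceeded number 1 by a median of 0.48 over the 78 genes, and within wild type by -0.05. With 1 mean per genotype and number as the sample, 0 members were called in limma (Mrpl43 adjusted p = 0.215). The count of 10 was 18 without the first Mettl3 -/- LT.HSC library, 19 without the second Mettl3 -/- ST.HSC library, and 6 without the second Mettl3 -/- CMP, Mettl3 -/- GMP, wild type CMP or wild type MPP library.

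**Figure D5:**
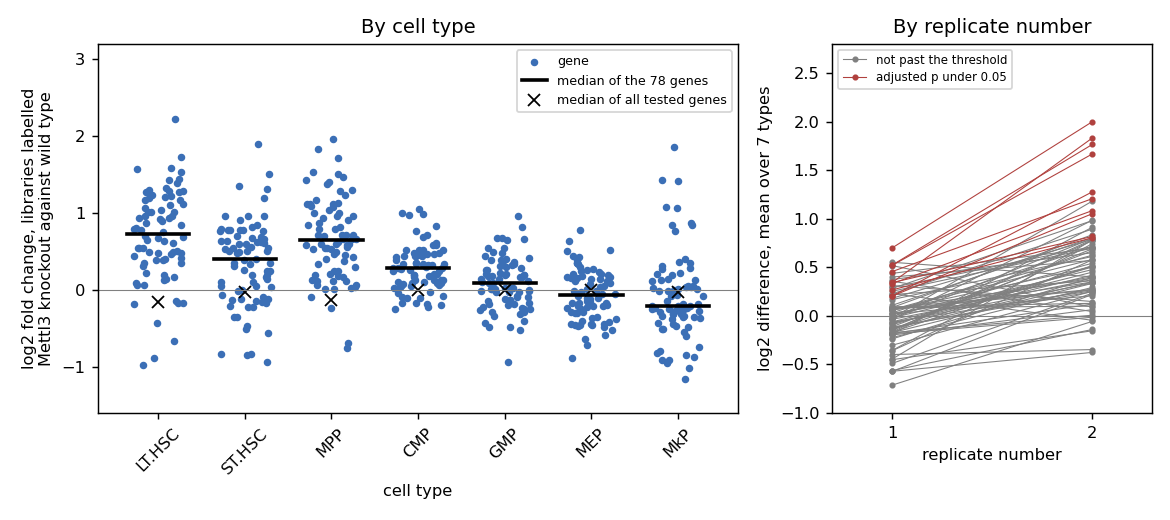
Left, log2 difference between input libraries labelled Mettl3 -/- and wild type for each of the 78 genes (vertical axis) in 7 cell types (horizontal axis), with a bar at the median of the 78 and a cross at the median of all genes tested. Right, the same difference averaged over the 7 types (vertical axis) for the libraries numbered 1 and those numbered 2 (horizontal axis), 1 line per gene, red for the 10 called: the 78 genes centre near 0 for number 1 (median 0.008) and lie mostly above 0 for number 2 (median 0.50).

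By cell type, no member passed the adjusted threshold in any of the 7 (limma; 0.399% of all genes were called higher and 0.140% lower in LT.HSC, 2.14% higher and 0.00665% lower in MEP, 0.0998% higher and 0.0133% lower in MkP, 0.0133% higher in ST.HSC and in MPP, 0.00665% higher in CMP, and 0% in the other directions), and edgeR on recovered reads gave 0 as well. The test of whether the genotype difference varied among types called 0 members (0.0133% of all genes; 0 members at an unadjusted p under 0.05). The medians were 0.73 in LT.HSC, 0.64 in MPP, 0.40 in ST.HSC, 0.28 in CMP, 0.09 in GMP, -0.07 in MEP and -0.20 in MkP. At an unadjusted p under 0.05, 24 members were higher in LT.HSC (9.61% of all genes) and 0 lower (7.29%), and 14 were higher in MPP (4.96%) and 0 lower (5.03%). In ST.HSC 4 were higher (4.90%) and 0 lower (6.49%), and in MkP 3 were higher (6.39%) and 1 lower (3.07%). In GMP 1 was higher (0.905%) and 0 lower (0.619%), in CMP 0 were higher (1.02%) or lower (0.665%), and in MEP 0 were higher (6.95%) and 1 lower (0.566%). Both libraries labelled Mettl3 -/- exceeded both wild type libraries for 55 members in MPP (20.6% of all genes), 28 in LT.HSC (18.4%), 23 in ST.HSC (16.2%), 22 in CMP (11.6%), 13 in MkP (20.7%), 8 in GMP (12.3%) and 1 in MEP (18.1%). Both lay below both wild type libraries for 18 members in MkP (20.1%), 9 in GMP (12.0%), 8 in MEP (14.0%), 7 in ST.HSC (16.7%), 3 in MPP (26.5%), 2 in CMP (14.2%) and 0 in LT.HSC (22.2%). In LT.HSC the number of members called changed when the second wild type library or the first Mettl3 -/- library was left out. The 2 wild type LT.HSC input libraries correlated at 0.49 over the members, the lowest of the Mettl3 input pairs. Their 4 granulocyte-monocyte progenitor markers summed to 17819.5 and 2363, against 7253 and 9237 in LT.HSC labelled Mettl3 -/-. In ST.HSC these markers summed to 104774 and 11510 in libraries labelled Mettl3 -/- and to 3922 and 3658 in wild type. In MkP the summed megakaryocyte markers were 11762 and 7619 in the libraries labelled Mettl3 -/- and 51484 and 35610.1 in wild type. None of the markers in these sums was at 0. The part of these markers' cells in the members' values was not tested.

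In the IP libraries of the same samples, edgeR's quasi-likelihood test called 1 member higher (0.441% of all genes) and 0 lower (0.155% of all genes). At an unadjusted p under 0.05 it gave 19 members higher and 1 lower. No share of all genes is given for these unadjusted counts or for DESeq2 below, so they cannot be set against all genes. The member called was Mrpl43, at scaled IP counts of 573 to 5476 (median 2220.01) in libraries labelled Mettl3 -/- against 136 to 1663 (median 804) in wild type (1.45, SE 0.36, edgeR adjusted p = 0.0499). Mrps34 (1.44, edgeR adjusted p = 0.0570) and Mrpl46 (1.36, edgeR adjusted p = 0.0595) came next, and all 3 are also among the input calls. DESeq2 called 12 members higher and 1 lower, whereas with the replicate block edgeR called 0 higher, and the call of Mrpl43 was lost in 13 of 28 omissions of single libraries. Enrichment, IP relative to input, gave 0 members higher and 0 lower by limma (0% of all genes in either direction), with a median of -0.02 against 0.03; at an unadjusted p under 0.05 there were 0 higher (2.07% of all genes) and 1 lower (2.26%), Mrpl44, an RNase III-like protein, at -0.97. The scaling removes a loss of enrichment shared by all genes, so the enrichment test could not have shown one. Of the wild type IP libraries, the first LT.HSC and the first ST.HSC library held 94.2% and 75.8% of their counts in 10 genes. The member Mrpl45 reached a scaled IP count of 6.11e+06 in a wild type library, against a wild type median of 1473.

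In LT.HSC labelled Igf2bp2 -/-, which lack a reader protein of m6A by their label, edgeR called 0 members in either direction, as it did 0% of all genes. At an unadjusted p under 0.05, 4 members were higher (2.49% of all genes) and 1 lower (3.87%), and DESeq2 called 1 higher and 1 lower. The median difference was 0.46 against 0.00 for all genes, and 66 of the 78 were above 0. Both libraries labelled Igf2bp2 -/- exceeded both wild type libraries for 32 members (15.5% of all genes), and both were lower for 4 (22.3%). The respiratory chain genes had a median of 0.98 (19 of 75 higher at an unadjusted p under 0.05) and the cytosolic ribosomal proteins of 0.58.

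The 5 members that passed the unadjusted threshold are named for that reason, after their values were seen. Mrpl41 had scaled counts of 696 and 513 in the libraries labelled Igf2bp2 -/- and 103 and 51.6 in wild type (3.06, SE 0.71, edgeR adjusted p = 0.618). Mrps18c had 3982 and 1196 against 703 and 635 (2.08), Mrps34 2020.3 and 886 against 515 and 363 (1.85), and Mrpl33 2082 and 810.4 against 684 and 487 (1.43). Mrps2 had 12.2 and 7.2 against 128 and 277 (-4.30), from 5 and 5 reads against 297 and 161. The 2 libraries labelled Igf2bp2 -/- lay far apart in Mrps18c, Mrps34 and Mrpl33, and none of these 5 overlapped between genotypes.

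New RNA was read as the percent of T-to-C conversions after 3 h of 4sU in MEP, GMP, CMP, MPP, ST.HSC and LT.HSC. The table lists 77 of the 78 members among 17824 genes. The median over members ran from 0.395% in one GMP library to 1.47% in one MPP library, and the other GMP library stood at 0.942%. Limma on log2(percent + 0.1) called 0 members and 0% of all genes among the 6 types (1 member at an unadjusted p under 0.05, Mrpl32). In LT.HSC against the 5 other types it called 0 as well (0% of all genes); 3 members were lower at an unadjusted p under 0.05 (8.68% of all genes) and 0 higher (1.18%). They were Mrpl13 (-1.86), Mrpl17 (-1.75) and Mrpl27 (-1.74). Mrpl13 had 0.406% and 0.056% in LT.HSC and from 0.424% to 1.83% in the 10 other libraries, so LT.HSC lay below all others. The median difference was -0.35 over members and -0.44 over all genes. On the mean of the 12 libraries Mrps25 was lowest (0.254%) and Mrps31 highest (2.44%).

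The chase table gives what the authors name averages of conversions. It holds 71 members of 11733 genes in LT.HSC and 77 members of 11438 genes in MkP. The labels give 2 libraries per chase time in LT.HSC but only 1 in MkP. The chase was not tested. In LT.HSC only 11 of the 71 members were listed above 0 at 0.5 h and 14 at 1 h, against 55 at 3 h, 46 at 6 h, 25 at 9 h, 59 at 12 h and 9 at 24 h. In MkP it was 69, 70, 68, 69, 59, 21 and 43 of 77 at the same times. The median over the members listed was 0.108% at 0.5 h, 0.0667% at 1 h, 0.0723% at 3 h, 0.0133% at 6 h, 0.0141% at 9 h, 0.221% at 12 h and 0.0185% at 24 h in MkP. In LT.HSC it was 0.0103%, 0.395%, 0.0227%, 0.0200%, 0.0162%, 0.0186% and 0.242% at the same times. The values did not fall steadily in either type, and the highest ones in LT.HSC stood at times with few members listed. Members listed at both 0.5 h and 12 h had a median ratio at 12 h of 118% of that at 0.5 h in LT.HSC (11 members; all genes 63.0%) and 164% in MkP (20 members; all genes 47.4%). No member reached 5% at the first time in either type, and the ratio was 7.41% of the 1 h value in LT.HSC and 250.4% in MkP, so a decay of these transcripts could not be read from these averages.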

How the data were processed

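Per the submitters' processing notes, which name no versions, reads were handled with fastp, Trimmomatic and kallisto on GRCm38. The deposited input tables hold a normalised signal, read counts divided by a size factor per library; per the file values, every value came back to a whole read within 0.1 of a read. The deposited atlas IP and Igf2bp2 tables hold raw counts, the deposited Mettl3 IP table expected counts (rounded here), and the authors' T-to-C tables a fraction, printed here as percent. Where the design had assumed another unit, the test followed the unit of the file.

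Inputs and enrichment were tested with limma 3.58.1 (R 4.3.3) on log2(value + 1) for genes at 10 or more in 2 or more libraries, with all groups of a table in one fit. Counts were tested with edgeR 4.0.16 (quasi-likelihood, TMM), with DESeq2 1.42.0 as the alternative. On the log2(value + 1) scale the change of a weakly expressed gene is understated. New RNA was tested as log2(percent + 0.1), keeping genes listed above 0 in 6 or more of the 12 libraries. P-values were adjusted by Benjamini-Hochberg over all genes tested, and the threshold was 0.05. The scripts were tested on simulated data.

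The members, the lists and the tests were chosen with earlier results of these data known. Each comparison names the 4 called members with the highest and the 4 with the lowest difference and members chosen for their roles; across the 16 types it names the 3 most and least alike in profile and the 3 widest and narrowest in range. Replicate numbers were not used to pair samples, since not every pair of groups had deviations that correlated over 0.1: 16 of 120 pairs did in the atlas inputs (median r 0.003), and 56 of 91 in the Mettl3 inputs (median r 0.16, up to 0.49), where the genotype difference also varied with the number. Transcript lengths were not used here, and 1 marker list is not reported here.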

Additional observations from a re-analysis of the deposited data

Results flagged for a closer look

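Enrichment (log2 IP minus input) of 23 member and contrast combinations differed between cell types by limma's test of the difference itself, in which the IP minus input effect of one set of types is compared with that of another (adjusted p under 0.05 over all genes). The share of members was close to that of all genes in 2 of the 3 contrasts: 6 of 78 were lower in LT.HSC (8.11% of all genes) and 5 of 78 in mature types (5.46%), whereas 10 of 78 were higher in MkP (6.89%). No explanation was tested for any of them. MkP exceeded LT.HSC by 3.68 in Mrps12, 2.59 in Mrpl11, 2.50 in Mrps15, 2.50 in Mrpl58, 2.27 in Mrpl22, 2.23 in Mrps28, 2.07 in Mrpl37, 1.88 in Mrpl36, 1.88 in Mrpl14 and 1.73 in Mrpl32. LT.HSC exceeded the 15 other types by 1.29 in Mrps25 and 1.08 in Mrps23, and differed by -1.22 in Mrpl32, -1.22 in Mrpl14, -1.35 in Mrps5, -1.56 in Mrps28, -1.67 in Mrpl37 and -2.49 in Mrps12. Mrps12, Mrps28, Mrpl37, Mrpl14 and Mrpl32 are in both lists, which share the LT.HSC libraries. The mature types differed from the 9 others by -0.54 in Mrpl51, -0.61 in Mrpl18, -0.64 in Mrpl12, -0.81 in Mrpl43 and -0.997 in Mrpl46. Single libraries were left out in turn for the members named by rule. Calls were lost in MkP for Mrps15 in 6 of 8 omissions and for Mrpl11 and Mrpl58 in 5 of 8 each, in LT.HSC for Mrps28 in 23 of 64, Mrps5 in 10, Mrpl37, Mrps23 and Mrps25 in 3 each and Mrps12 in 1, and in mature types for Mrpl12 in 21 of 64.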

How the results depend on the processing

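For single named members, calls were kept with their direction in 2328 of 2512 combinations of gene and alternative and lost in 184; members not called as reported gained a call in 47 of 4600 and changed sign in 138. The chase ratios crossed 100% with another time in both types. Enrichment in LT.HSC was called lower for 2 members with median-of-ratios scaling (6 as reported), and in mature types for 3 with that scaling and for 3 with no filter (5 as reported). For Mettl3 input over 7 types, 1 mean per genotype and number gave 0 higher, and 1 member was lower with the replicate block, with a pseudocount of 10 and with no filter; in Mettl3 LT.HSC, 1 was higher with the replicate block and 1 with TMM scaling. In the Mettl3 IP libraries, the replicate block gave 0 higher, DESeq2 12, RLE size factors 3, no filter 3, and leaving out 3 doubtful libraries (chosen after seeing the data) 2, and DESeq2 and no filter gave 1 lower each. For Igf2bp2, DESeq2 gave 1 higher and 1 lower. The chase ratio relative to 1 h was 7.41% in LT.HSC and 250.4% in MkP, and at 9 h relative to 0.5 h it was 119.8% and 16.5%; a first ratio of at least 5% left no member. The cause was not tested for any of these. The replicate block changed no other count past 1.5 times. Other scaling moved the median of all genes by over 0.1 also in Mettl3 LT.HSC input (-0.16 to -0.01), LT.HSC enrichment (-0.22 to -0.07) and Mettl3 enrichment (0.03 to 0.14).

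Leaving out each library in turn gave 0 to 1 higher and 16 to 49 lower in LT.HSC, 28 to 66 higher in MkP, 19 to 23 lower in Erythroid, 25 to 51 lower in Neutrophil, 6 to 8 higher and 48 to 52 lower in mature types. For enrichment it gave 12 to 36 members differing among types, 0 to 15 higher and 1 to 11 lower in LT.HSC, 1 to 16 higher and 0 to 1 lower in MkP, and 0 to 2 higher and 3 to 8 lower in mature types. For Mettl3 input it gave 6 to 19 higher and 0 to 2 lower over 7 types, 0 to 7 higher and 0 to 2 lower in LT.HSC and 0 to 1 lower in ST.HSC; for Mettl3 enrichment 0 to 1 lower, and for Mettl3 IP 0 to 3 higher and 0 to 1 lower. Where a type kept 1 library, it was taken to vary like the others. No share of all genes is given for these fits, for the other settings or for some unadjusted counts. Member counts without that share cannot be set against all genes. With 2 libraries per type, and Mettl3 IP libraries as small as 818993 reads, the absence of a call does not show that levels were equal.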
